A study of Mus musculus with 2 samples.

Results

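The vascular endothelial growth factor (VEGF) genes were followed across the cell types of perigonadal white adipose tissue (gWAT). The 10 genes were chosen by name, out of 32285 genes counted. They are the family's 5 ligands (Vegfa, Vegfb, Vegfc, Vegfd and Pgf), its 3 receptor tyrosine kinases (Flt1, Kdr and Flt4, which code for VEGFR1, VEGFR2 and VEGFR3) and the neuropilin co-receptors Nrp1 and Nrp2. VEGF ligands are secreted proteins that bind receptors on endothelial cells. VEGF-A signals mainly through VEGFR2 to drive vessel growth and permeability, VEGF-B and placental growth factor (PGF) bind VEGFR1, and VEGF-C and VEGF-D bind VEGFR3, the main receptor of lymphatic vessels. Neuropilins hold ligand and receptor together and also bind class 3 semaphorins, and they are found on many cells without VEGF receptors.

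The study sorted live eYFP+ cells from the stromovascular fraction, the cells left after mature adipocytes are removed, of male Cyp1a1Cre x R26LSL-eYFP mice. Cre is made where Cyp1a1 is switched on, as the aryl hydrocarbon receptor (AHR) does when bound by a ligand, and turns on eYFP permanently, so the cells are those in which Cyp1a1 was active at some time and not all cells of the depot. For 12 weeks the mice ate food with 10% fat (low-fat diet, LFD) or 60% fat (high-fat diet, HFD). FICZ, a ligand of AHR, was given to both groups in a dose of 10 mg/kg, 5 days ahead of tissue collection, so neither group was free of it. Each diet gave 1 library from pooled mice, whose cells could not be traced to a mouse. No test between diets was therefore possible, and each comparison is between these libraries, not between the diets at large. Intervals in parentheses are exact 95% intervals and cover counting error only.

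After filtering, 9294 LFD cells with a median of 10223 UMIs (unique molecular identifiers, each 1 counted RNA molecule) and 7879 HFD cells with a median of 12721 UMIs remained, and 27 barcodes occurred in both libraries. They formed 16 clusters, 15 of which could be named from marker genes. The level of a gene is given as counts per 1000000 (CPM), its UMIs per 1000000 UMIs of all cells of that type in that library. UMIs were read from the 3′ end, so a level does not scale with transcript length. Ratios are the HFD level over the LFD level, and where values of both libraries are given as a pair the LFD value comes first. All 10 endothelial markers, none of them a VEGF gene, were raised in the endothelial-like cluster of 662 LFD and 603 HFD cells. The same markers were raised in the mural-like cluster, which held only 11 LFD and 73 HFD cells, and no ratio is given for it. The 4521 cells called Wt1+ stromal-like had 6 of the 7 markers of that list raised, but none was among the cluster's leading 10 genes. Both mesothelial-like clusters had 6 of these 7 raised too, beside all 10 mesothelial markers. As a mean fraction of each marker's highest cluster, the Wt1+ stromal list was at 0.531 in Wt1+ stromal-like cells. It was at 0.746 in mesothelial-like and 0.524 in cycling mesothelial-like cells. The mesothelial list was at 0.423 in cycling mesothelial-like cells, so the name of that cluster is uncertain.

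**Figure D1:**
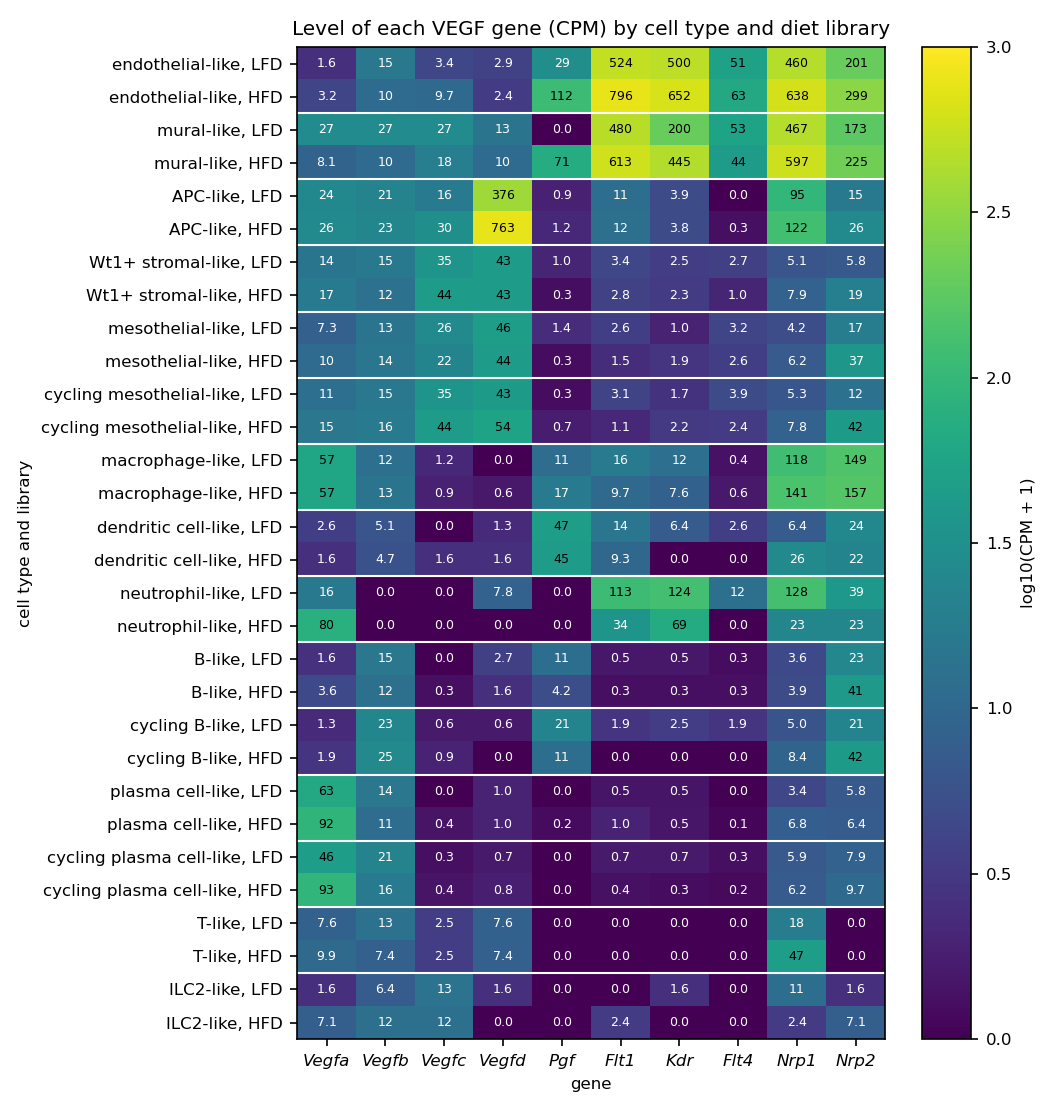
Level of the 10 VEGF genes in each named cell type and library, in CPM and coloured on a log scale. Flt1, Kdr and Nrp1 reach 796, 652 and 638 CPM in HFD endothelial-like cells, and Vegfd reaches 763 CPM in HFD cells like adipocyte progenitor cells (APC-like).

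The promoters of Vegfc, Pgf and Flt1, the members that were at least 1.5-fold higher in HFD endothelial-like cells, and of Nrp2, which was higher in both mesothelial-like clusters, are shown because the cells were sorted on the history of an AHR target gene. Each sequence is the 250 bases before an annotated start site, 5′ to 3′ on the gene's strand, from RefSeq (GRCm38.p6). Capitals mark GCGTG, the core of the site bound by AHR, or its reverse complement CACGC. The other motif searched on both strands was ACGTG, the core of the site bound by hypoxia-inducible factors, and none of these 5 windows held it. The Vegfc window and the second Pgf window held neither motif and so have no capitals.
Vegfc promoter, chr8:54077282-54077531, plus strand: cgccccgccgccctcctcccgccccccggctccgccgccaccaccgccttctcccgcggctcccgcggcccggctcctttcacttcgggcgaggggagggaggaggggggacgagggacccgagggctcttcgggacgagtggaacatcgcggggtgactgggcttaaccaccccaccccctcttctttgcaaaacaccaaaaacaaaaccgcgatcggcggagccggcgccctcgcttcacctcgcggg
Pgf promoter, first start site, chr12:85177314-85177563, minus strand: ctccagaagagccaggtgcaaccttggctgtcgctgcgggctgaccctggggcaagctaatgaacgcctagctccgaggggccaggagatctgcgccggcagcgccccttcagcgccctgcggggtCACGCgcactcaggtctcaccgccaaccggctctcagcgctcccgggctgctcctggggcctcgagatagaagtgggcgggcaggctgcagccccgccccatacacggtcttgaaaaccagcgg
Pgf promoter, second start site, chr12:85175983-85176232, minus strand: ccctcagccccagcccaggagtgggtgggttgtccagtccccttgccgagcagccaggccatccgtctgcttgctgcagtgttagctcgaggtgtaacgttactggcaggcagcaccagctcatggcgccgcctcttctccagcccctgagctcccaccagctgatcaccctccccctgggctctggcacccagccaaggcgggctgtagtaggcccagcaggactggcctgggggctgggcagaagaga
Flt1 promoter, chr5:147726012-147726261, minus strand: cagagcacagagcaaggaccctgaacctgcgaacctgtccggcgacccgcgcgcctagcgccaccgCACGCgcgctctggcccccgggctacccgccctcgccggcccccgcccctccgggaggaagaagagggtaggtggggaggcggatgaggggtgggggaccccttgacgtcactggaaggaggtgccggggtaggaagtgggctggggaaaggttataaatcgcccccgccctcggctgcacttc
Nrp2 promoter, chr1:62703067-62703316, plus strand: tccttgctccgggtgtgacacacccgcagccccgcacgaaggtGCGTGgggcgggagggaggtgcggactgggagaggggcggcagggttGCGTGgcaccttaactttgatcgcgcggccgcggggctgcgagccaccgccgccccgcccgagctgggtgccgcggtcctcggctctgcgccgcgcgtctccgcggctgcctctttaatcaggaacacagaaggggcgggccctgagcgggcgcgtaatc
The GCGTG core occurred at 1 place before the first Pgf start site and before Flt1, and at 2 places before Nrp2. RefSeq gave 12 start sites for the 10 genes, and 7 of these 12 windows held the core, against 28.2% of all 32851 windows. The ACGTG core was in 1 of the 12, before the second Vegfa start site, against 16.6% of all windows. A match describes these letters only and says nothing of whether a factor was bound.

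The ligands came from different cells. With both libraries pooled, Wt1+ stromal-like cells held more ligand UMIs than any other type, 6619, and APC-like cells had 6099, but the order differed between the libraries. In the LFD library these types had 3944 and 1009, and in the HFD library 2675 and 5090. Endothelial-like cells had 538 ligand UMIs.

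**Figure D2:**
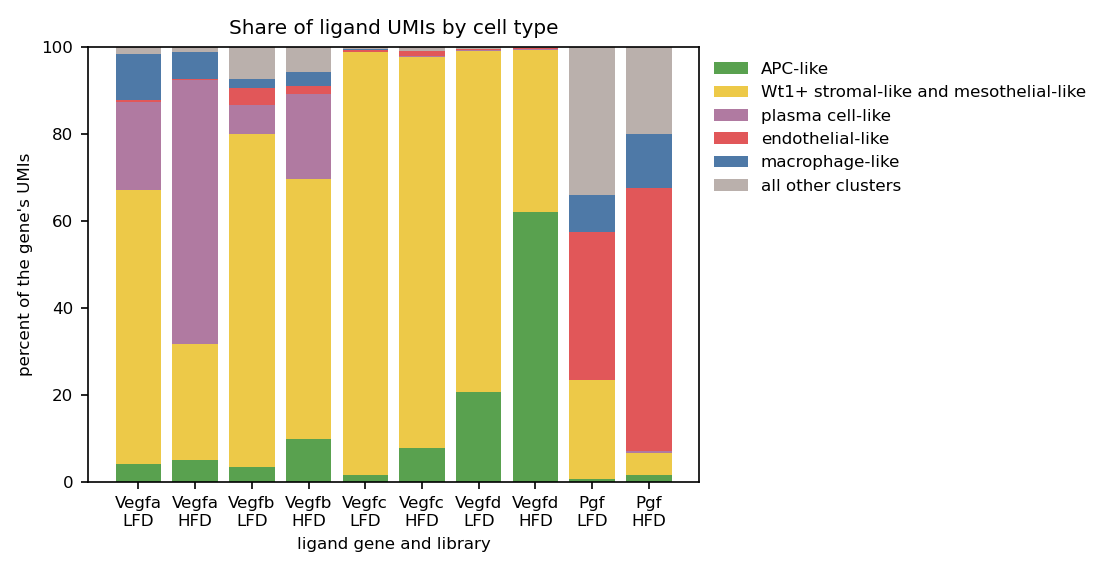
Share of each ligand gene's UMIs (percent) that came from each group of cell types (colours) in the LFD and HFD libraries. The plasma cell-like share of Vegfa is 20.2% and 60.9%, the APC-like share of Vegfd 20.5% and 61.9%, and the endothelial-like share of Pgf 34.2% and 60.6%.

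Vegfa (chr17:46016993-46032369, minus strand, mm10), the main ligand of VEGFR2, had its highest levels, among types with at least 20 UMIs, in HFD plasma cell-like cells, antibody-secreting cells of the B lineage. In the non-cycling cluster it was 63.3 CPM (52.9 to 75.1) in the LFD library and 91.8 CPM (85.8 to 98.1) in the HFD library, a ratio of 1.45 (1.21 to 1.76). In the cycling cluster it was 46.1 CPM (38.7 to 54.3) in the LFD library and 92.9 CPM (87.4 to 98.7) in the HFD library, a ratio of 2.02 (1.69 to 2.42). Both were higher in the HFD library by more than counting error. To compare shares of cells at 1 depth, cells were thinned to 2000 UMIs and those with fewer were left out, which removed 2 LFD and 12 HFD non-cycling cells here. A Vegfa UMI was then found in 12.7% (8.38 to 18.2%) of the LFD and 15.9% (13.4 to 18.7%) of the HFD non-cycling cells used, shares whose intervals overlapped. Without thinning the shares were 36.2% and 53.0%. In the cycling cluster the thinned shares were 7.89% (4.49 to 12.7%) and 16.1% (13.3 to 19.3%), whose intervals did not overlap, and the unthinned shares 46.1% and 67.3%. The 474 LFD and 433 HFD endothelial-like cells with at least 2000 UMIs, used to gauge free RNA, gave 0.844% and 0.693%.

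The non-cycling plasma cell-like cluster made up 2.14% of LFD and 9.72% of HFD cells, and the cycling cluster 2.06% and 7.75%. Their joint part of all Vegfa UMIs was 20.2% (18.1 to 22.4%) in the LFD library and 60.9% (59.1 to 62.6%) in the HFD library. With cells kept only under 5% mitochondrial UMIs these shares were 43.5% and 82.6%. The Wt1+ stromal-like and both mesothelial-like clusters held 62.9% and 26.5%. Macrophage-like cells had 56.6 and 56.7 CPM, a ratio of 1.00 (0.802 to 1.25). Vegfa was 1.23 (1.08 to 1.41) times the LFD level in HFD Wt1+ stromal-like cells and 1.38 (1.13 to 1.68) times in HFD mesothelial-like cells, at levels of 7.32 to 16.8 CPM. The mesothelial-like ratio was 0.805 under the stricter mitochondrial limit, where that cluster held a different set of cells. APC-like cells had 24.3 and 26.4 CPM, a ratio of 1.08 (0.795 to 1.497). Endothelial-like cells had 6 and 8 UMIs of Vegfa in all, too few for a comparison.

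Vegfb (chr19:6982473-6987651, minus strand), a VEGFR1 ligand, was the most even ligand. Where it had at least 20 UMIs over both libraries its level lay between 10.1 and 25.1 CPM, and no ratio passed 1.5-fold. Wt1+ stromal-like cells had 15.2 and 12.5 CPM, a ratio of 0.818 (0.707 to 0.945), the only one of these intervals that did not include 1.

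Vegfd (chrX:164373378-164402650, plus strand), a VEGFR3 ligand, had more UMIs than any other ligand and was highest in APC-like cells, fibroblast-like cells that can give rise to adipocytes. In these cells it was 376 CPM (351 to 402) in the LFD library and 763 CPM (741 to 785) in the HFD library, a ratio of 2.03 (1.89 to 2.18). The share of cells with a Vegfd UMI moved the same way, at 45.7% (38.8 to 52.7%) of LFD and 61.2% (57.0 to 65.3%) of HFD APC-like cells after thinning and 75.5% and 87.4% before it, against thinned shares of 0.508% and 0.133% in plasma cell-like cells. Thinning left out 6 LFD and 23 HFD APC-like cells. Wt1+ stromal-like cells had 43.2 and 42.9 CPM, a ratio of 0.994 (0.917 to 1.08). Mesothelial-like cells had 46.3 and 43.8 CPM, a ratio of 0.946 (0.869 to 1.03). Vegfd thus differed between the libraries in APC-like cells and, less, in cycling mesothelial-like cells, which had 42.6 and 53.7 CPM, a ratio of 1.26 (1.13 to 1.41). The APC-like cluster took up 2.32% of the LFD and 7.36% of the HFD library, and its part of all Vegfd UMIs was 20.5% (19.3 to 21.8%) and 61.9% (60.8 to 63.0%).

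Vegfc (chr8:54077606-54187096, plus strand), the other VEGFR3 ligand and the main lymphatic growth factor, came mostly from the Wt1+ stromal-like and mesothelial-like clusters, with 97.3% of LFD and 89.8% of HFD UMIs. In Wt1+ stromal-like cells it was 34.97 CPM (33.1 to 36.9) in the LFD library and 43.6 CPM (41.0 to 46.4) in the HFD library, a ratio of 1.25 (1.15 to 1.36). Mesothelial-like cells had 25.6 and 21.5 CPM, a ratio of 0.842 (0.749 to 0.946). That ratio was 1.03 without integration of the libraries and 1.20 under the stricter mitochondrial limit, settings in which the cluster held a different set of cells. It had 3151 cells here, 4971 without integration and 1515 under that limit. Over the 3 clusters pooled the ratio was 1.07 (1.01 to 1.14). In APC-like cells Vegfc was 16.1 CPM (11.3 to 22.1) in the LFD library and 30.3 CPM (26.1 to 35.1) in the HFD library, a ratio of 1.89 (1.32 to 2.77). Both VEGFR3 ligands were therefore higher in the APC-like cells of the HFD library.

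Among the 8 members with at least 20 UMIs in APC-like cells, 3 were at least 1.5-fold higher in the HFD library (Vegfc, Vegfd and Nrp2) and none was as much lower. Of all 11256 genes with as many UMIs in these cells, 17.4% were at least 1.5-fold higher and 7.2% at least 1.5-fold lower. VEGF-C and VEGF-D are made as precursors that other proteins cut, and of the 6 listed genes of that step in Wt1+ stromal-like cells, none passed 1.5-fold in either direction, against 8.46% and 9.53% of all genes there. Over the Wt1+ stromal-like and both mesothelial-like clusters pooled, 1 of the 6 did, Ccbe1, at 1.57.

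Pgf (chr12:85166635-85177790, minus strand), the placental growth factor gene, was the ligand with the highest level in endothelial-like cells, and of the 8 members with at least 20 UMIs there it had the largest ratio. It was 29.1 CPM (23.9 to 35.05) in the LFD library and 112 CPM (99.0 to 126) in the HFD library, a ratio of 3.84 (3.07 to 4.83). These levels rest on 111 UMIs in 40 LFD cells and 277 UMIs in 77 HFD cells, and the highest cell held 9.01% and 5.05% of them. Pgf was thus found in a minority of the cluster, in 6.04% of all LFD and 12.8% of all HFD endothelial-like cells. Thinning left out 188 LFD and 170 HFD cells with under 2000 UMIs, so that the cells used are not a sample of the whole cluster. Of the 474 LFD and 433 HFD cells used, 3.38% (1.94 to 5.42%) and 11.5% (8.69 to 14.9%) had a Pgf UMI. No thinned plasma cell-like cell had one, of 197 LFD and 754 HFD cells, which at a limit of 3 cells of the total allows shares of up to 1.52% and 0.398%.

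Dendritic cell-like cells also had Pgf, with 47.5 and 45.1 CPM, a ratio of 0.949 (0.563 to 1.59), from 37 and 29 UMIs. Macrophage-like cells had 10.8 and 16.7 CPM, a ratio of 1.56 (0.968 to 2.56), a difference within counting error. B-like cells went the other way, with 11.0 and 4.20 CPM, a ratio of 0.383 (0.188 to 0.730). In Wt1+ stromal-like and mesothelial-like cells Pgf was at or below 1.38 CPM, and 1 LFD mesothelial-like cell held 62.5% of that cluster's 32 UMIs.

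Flt1 and Kdr, the genes for VEGFR1 and VEGFR2, were found chiefly in endothelial-like cells. VEGFR1 binds VEGF-A tightly but signals weakly, and its gene also makes a soluble form, which these counts do not separate from the full receptor. Flt1 (chr5:147561604-147726011, minus strand) was 524 CPM (501 to 548) in the LFD library and 796 CPM (761 to 831) in the HFD library, a ratio of 1.52 (1.43 to 1.62). Kdr (chr5:75932827-75978458, minus strand) was 500.0 CPM (478 to 523) in the LFD library and 652 CPM (621 to 685) in the HFD library, a ratio of 1.30 (1.22 to 1.39). Endothelial-like cells held 83.8% of LFD and 78.2% of HFD Flt1 UMIs, and 88.7% and 79.6% of Kdr UMIs. Among the endothelial-like cells that could be thinned, the share with a Flt1 UMI was 59.9% (55.3 to 64.4%) in the LFD and 71.4% (66.9 to 75.6%) in the HFD library, against 0.508% and 0.265% of plasma cell-like cells. For Kdr these shares were 59.7% (55.1 to 64.2%) and 70.7% (66.1 to 74.9%). Over all endothelial-like cells, without thinning, they were 81.4% and 76.6% for Flt1 and 78.5% and 82.1% for Kdr.

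HFD mural-like cells had 613 CPM of Flt1 and 445 CPM of Kdr, and 69 of these 73 cells had at least 3 endothelial markers. In the other types the receptor genes were low. For Flt1, macrophage-like cells had 16.3 and 9.69 CPM, a ratio of 0.593 (0.363 to 0.961), and the ratio was 1.88 under the stricter mitochondrial limit. In them 85.4% of LFD and 90.9% of HFD Flt1 UMIs lay in the 18 and 14 cells that also had at least 3 endothelial markers, and without those cells the level was 2.49 and 0.916 CPM. The LFD neutrophil-like cluster had 113 CPM of Flt1 and 124 CPM of Kdr, but all 29 and 32 UMIs lay in 17 such cells. Summed endothelial markers in that cluster were 1135 CPM in the LFD and 676 CPM in the HFD library, against 40.6 and 46.7 CPM in plasma cell-like cells. In the Wt1+ stromal-like and mesothelial-like clusters Flt1 was at or below 3.40 CPM, Kdr at or below 2.52 CPM and Flt4 at or below 3.89 CPM.

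Flt4 (chr11:49609263-49652739, plus strand), the VEGFR3 gene, had its highest level, mural-like cells aside, in endothelial-like cells, where it was 50.6 CPM (43.7 to 58.3) in the LFD library and 63.4 CPM (53.8 to 74.1) in the HFD library, a ratio of 1.25 (1.01 to 1.55). The interval reached 1 in cells gated on Pecam1, at 1.24 (0.993 to 1.55), and the ratio was 1.12 when scaled to the median gene. Endothelial-like cells held 43.6% of LFD and 51.0% of HFD Flt4 UMIs, and the far more numerous Wt1+ stromal-like and mesothelial-like cells 52.8% and 39.3%. VEGFR3 is best known from lymphatic endothelium, but blood vessels make it too. Prox1, the transcription factor that sets lymphatic identity, had 0 UMIs in LFD and 1 UMI in HFD endothelial-like cells, and no cell had 3 or more of the 6 lymphatic markers. None of the 132 LFD and 128 HFD endothelial-like cells with a Flt4 UMI had a Prox1 UMI.

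Nrp1 (chr8:128358604-128503363, plus strand), a co-receptor of VEGFR2, was highest, mural-like cells aside, in the endothelial-like cluster, where it was 460.2 CPM (439 to 482) in the LFD library and 638 CPM (607 to 670.0) in the HFD library, a ratio of 1.39 (1.29 to 1.48). Macrophage-like cells had 118 and 141 CPM, a ratio of 1.19 (1.03 to 1.38). APC-like cells had 94.7 and 122 CPM, a ratio of 1.29 (1.10 to 1.502). In the Wt1+ stromal-like and both mesothelial-like clusters Nrp1 was far lower, from 4.18 to 7.85 CPM, with ratios of 1.47 to 1.53. The ratio was above 1 by more than counting error in all 6 of these types, but it was 0.645 in cycling mesothelial-like cells under the stricter mitochondrial limit, which left no value for APC-like and Wt1+ stromal-like cells. The Wt1+ stromal-like and mesothelial-like levels were near those of plasma cell-like cells, at 3.38 and 6.81 CPM, a ratio of 2.02 (0.924 to 5.21). Cycling plasma cell-like cells had 5.92 and 6.17 CPM. In endothelial-like cells the Nrp1 ratio was 1.05 with equal sub-cluster weights, described further on, and 0.908 (0.806 to 1.02) in the sub-cluster with most cells. Endothelial-like cells held 63.3% of LFD and 42.5% of HFD Nrp1 UMIs, and APC-like cells 7.86% and 19.7%.

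Nrp2 (chr1:62703285-62818695, plus strand), a co-receptor of VEGFR3, overlaps the gene Gm29083 on the opposite strand. In endothelial-like cells it was 201 CPM (187 to 215) in the LFD library and 299 CPM (278 to 321) in the HFD library, a ratio of 1.49 (1.35 to 1.65). Macrophage-like cells had 149 and 157 CPM, a ratio of 1.05 (0.920 to 1.20). Among types with at least 20 UMIs, its largest ratios were in the mesothelial-like and Wt1+ stromal-like clusters. Cycling mesothelial-like cells had 12.2 and 41.7 CPM, a ratio of 3.41 (2.88 to 4.04). Non-cycling mesothelial-like cells had 17.0 and 37.3 CPM, a ratio of 2.19 (1.95 to 2.47). Wt1+ stromal-like cells had 5.83 and 18.5 CPM, a ratio of 3.18 (2.69 to 3.76). Their LFD level was near the 5.80 and 6.39 CPM of plasma cell-like cells. The Wt1+ stromal-like ratio came to 1.29 without integration of the libraries, a setting that moves the boundary with mesothelial-like cells. Pooling the 3 clusters sets that boundary aside, and the pooled levels were 10.6 CPM in the LFD and 31.1 CPM in the HFD library, a ratio of 2.93 (2.70 to 3.19). Mesothelial markers moved with Nrp2. All 10 were detected in both libraries, and their summed level was 276 and 784 CPM in Wt1+ stromal-like, 1702 and 2624 CPM in mesothelial-like and 818 and 1512 CPM in cycling mesothelial-like cells, and 828 and 1710 CPM over the pool. Their part in the Nrp2 ratios was not tested.

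Nrp2 was also higher in HFD B-like cells, with 23.4 and 40.7 CPM, a ratio of 1.74 (1.31 to 2.33). In cycling B-like cells the ratio was 1.96 (1.23 to 3.15), and in APC-like cells it was 1.71 (1.18 to 2.55). After thinning, 3.04% (2.27 to 3.99%) of LFD and 7.14% (5.89 to 8.56%) of HFD mesothelial-like cells had a Nrp2 UMI, where plasma cell-like cells gave 2.03% (0.556 to 5.12%) and 1.06% (0.459 to 2.08%). Without thinning the mesothelial-like shares were 17.6% and 36.2%. The thinned LFD share in mesothelial-like cells lay within the interval of the plasma cell-like share, and the thinned HFD share lay above it.

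**Figure D3:**
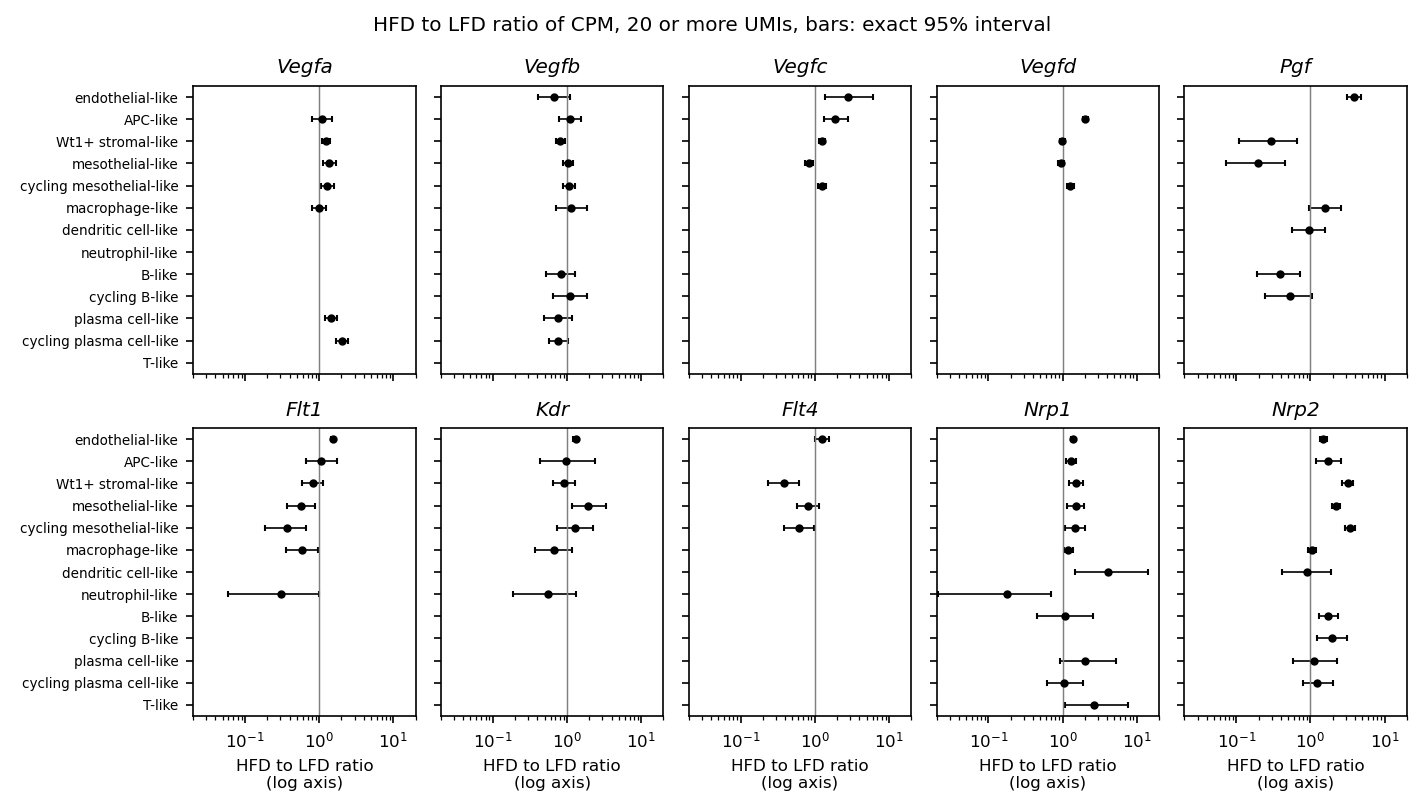
HFD to LFD ratio of CPM (log axis) of the members in named cell types, with exact 95% intervals for counting error as bars. Pgf stands at 3.84 in endothelial-like and 0.383 in B-like cells, and Nrp2 stands above 1 in all 3 mesothelial-like and Wt1+ stromal-like clusters.

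The members were then set against all genes of the same cells. In Wt1+ stromal-like cells 2 of 10 members (Nrp1 and Nrp2) were at least 1.5-fold higher and 2 (Pgf and Flt4) at least 1.5-fold lower in the HFD library, where 8.46% and 9.53% of all genes with 20 UMIs passed. Nrp2 was at 1.29 there without integration, and over the 3 clusters pooled Nrp1, at 1.47, was short of 1.5-fold and Flt1, at 0.616, was past it. In mesothelial-like cells 2 of 10 (Kdr and Nrp2) were higher and 2 (Pgf and Flt1) lower, against 9.98% and 5.02% of all genes. The Pgf call there came from 32 and 7 UMIs and rests largely on 1 LFD cell, which held 62.5% of the 32. Kdr was at only 0.991 and 1.92 CPM in these cells. Of their Flt1 UMIs, 29.5% in the LFD and 35.9% in the HFD library lay in cells with at least 3 endothelial markers. In cycling mesothelial-like cells 1 of 9 (Nrp2) was higher and 2 (Flt1 and Flt4) lower, against 9.81% and 5.69%. Macrophage-like cells had 1 of 7 (Pgf) higher and 2 (Flt1 and Kdr) lower, against 10.6% and 6.38%. Macrophage-like Kdr rested on 29 and 26 UMIs, with a ratio of 0.661 (0.374 to 1.16), an interval that includes 1, and 69.0% of its LFD and 69.2% of its HFD UMIs lay in the 18 and 14 cells with at least 3 endothelial markers. Plasma cell-like cells had 1 of 4 (Nrp1, from 7 and 64 UMIs) higher and none lower, against 9.64% and 17.2%. Cycling plasma cell-like cells had 1 of 4 (Vegfa) higher and none lower, against 7.9% and 7.76%. B-like cells had 1 of 4 (Nrp2) higher and 1 (Pgf) lower, against 11.4% and 8.88%. The intervals of macrophage-like Pgf (1.56 (0.968 to 2.56)) and plasma cell-like Nrp1 (2.02 (0.924 to 5.21)) also included 1.

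Endothelial-like cells had 8 members with at least 20 UMIs. Of these, 3 were at least 1.5-fold higher in the HFD library (Vegfc, Pgf and Flt1) and none was as much lower, where 19.2% of 10750 genes were as much higher and 9.07% as much lower. The median log2 ratio of the 8 members was 0.52, against 0.14 for all genes tested. Scaled to the median gene, the ratio of Pgf was 3.45, of Flt1 1.36, of Nrp2 1.34, of Nrp1 1.24 and of Kdr 1.17. Vegfc had 13 and 24 UMIs there, with 3.41 and 9.69 CPM, a ratio of 2.84 (1.39 to 6.08). With equal sub-cluster weights the Vegfc ratio was 1.85. Vegfb had 14.9 and 10.1 CPM, a ratio of 0.675 (0.404 to 1.10). The median depth was 3984 UMIs in LFD and 2899 UMIs in HFD endothelial-like cells, and the summed level of the 10 endothelial markers was 8609 and 9912 CPM. Markers of other cells moved as well. Mesothelial markers, of which 9 and 10 of 10 were detected, with Krt18 at 0 in the LFD library, summed to 74.2 and 143 CPM. Mural markers, also 9 and 10 of 10, with Cspg4 at 0 in the LFD library, summed to 340 and 521 CPM. The 12 APC markers summed to 1030 and 804 CPM, and the 8 cycling markers to 743 and 326 CPM. The part of these differences in the member ratios was not tested.

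**Figure D4:**
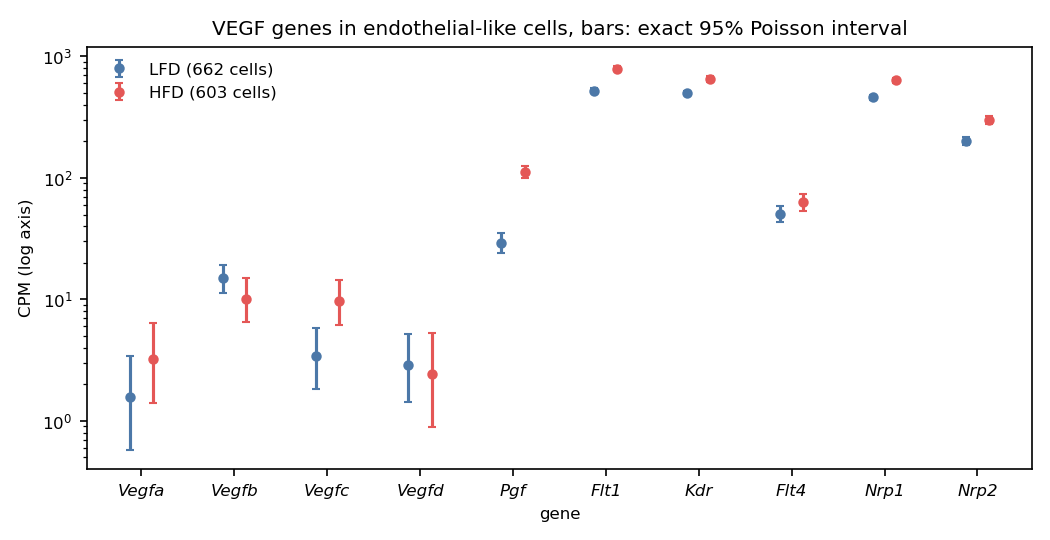
Level of each member (CPM, log axis) in endothelial-like cells of the LFD library (662 cells) and the HFD library (603 cells), with exact 95% Poisson intervals as bars. Pgf shows the widest gap among members with at least 20 UMIs, at 29.1 and 112 CPM.

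Endothelial-like cells were clustered again on their own, leaving the VEGF genes and the other listed genes out of the clustering. Of the 6 sub-clusters, 1 of 599 cells was led by genes such as Timp4, Lpl and Aqp7, and 1 of 341 cells by genes such as Prnd, Nid2 and Apln. A cycling sub-cluster of 144 cells had all 8 cycling markers raised. An arterial-like sub-cluster of 79 cells had 3 of 6 arterial markers raised, and a venous-like one of 73 cells had 5 of 5 venous markers. The last, of 29 cells, was led by Cfd, Adig and Adipoq. The Timp4-led cells made up 39.0% of LFD and 56.6% of HFD endothelial-like cells, the Apln-led cells 30.5% and 23.1%, and the cycling cells 16.2% and 6.14%.

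Pgf lay mostly in the Apln-led and cycling cells. The Apln-led cells held 64.9% of LFD and 69.3% of HFD endothelial-like Pgf UMIs, and the cycling cells 31.5% and 23.5%. Within the Apln-led cells Pgf was 43.5 and 214 CPM, a ratio of 4.92 (3.74 to 6.55). Within the cycling cells it was 30.1 and 168 CPM, a ratio of 5.58 (3.64 to 8.67). The Timp4-led cells had 3.91 and 20.2 CPM from 2 and 17 UMIs, and the venous-like cells had no Pgf UMI. The Pgf difference was thus present within each of the sub-clusters that held most of its UMIs.

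The receptors were distributed otherwise. In Timp4-led cells Flt1 was 1030 and 1334 CPM, a ratio of 1.29 (1.17 to 1.44). In Apln-led cells Flt1 was 437 and 445 CPM, a ratio of 1.02 (0.899 to 1.15), and in cycling cells it was 344 and 259 CPM, a ratio of 0.751 (0.597 to 0.937). The Flt1 ratio was 1.49 (1.17 to 1.91) in arterial-like, 1.49 (1.18 to 1.87) in venous-like and 0.775 (0.462 to 1.25) in Cfd-led cells. Flt1 was therefore higher in the HFD library in some sub-clusters and not in others. Kdr had a ratio of 1.10 (0.974 to 1.24) in Timp4-led and 1.08 (0.963 to 1.20) in Apln-led cells, 1.26 (1.05 to 1.496) in cycling cells, 1.36 (0.995 to 1.88) in arterial-like cells and 1.32 (0.910 to 1.91) in venous-like cells. For Nrp1, Timp4-led cells had 899 and 817 CPM, a ratio of 0.908 (0.806 to 1.02). Apln-led cells had 392 and 569.8 CPM, a ratio of 1.45 (1.29 to 1.63). Nrp2 had a ratio of 1.55 (1.32 to 1.83) in Apln-led and 2.19 (1.71 to 2.80) in cycling cells, but was lower in HFD arterial-like cells, with 238 and 105 CPM from 36 and 18 UMIs.

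When each sub-cluster was weighted by its share of the cells of both libraries together, a step added after these values had been seen, the ratio for Pgf was 4.95. For Flt1 it was 1.22, for Kdr 1.12, for Flt4 1.11, for Nrp1 1.05 and for Nrp2 1.29. The receptor and neuropilin ratios were smaller than those of the summed UMIs, and the Pgf ratio was not. This step changes 2 things, since it sets the make-up equal and also counts by cells where the sums count by UMIs. With each library's own cell shares, which changes only the second, Pgf was at 3.53, Flt1 at 1.44, Kdr at 1.23, Flt4 at 1.19, Nrp1 at 1.17 and Nrp2 at 1.32. With each sub-cluster weighted by its share of the UMIs of both libraries, which changes only the make-up, Pgf was at 5.05, Flt1 at 1.14, Kdr at 1.13, Flt4 at 1.14, Nrp1 at 1.19 and Nrp2 at 1.46. Below, equal weights are by cells unless UMIs are named.

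**Figure D5:**
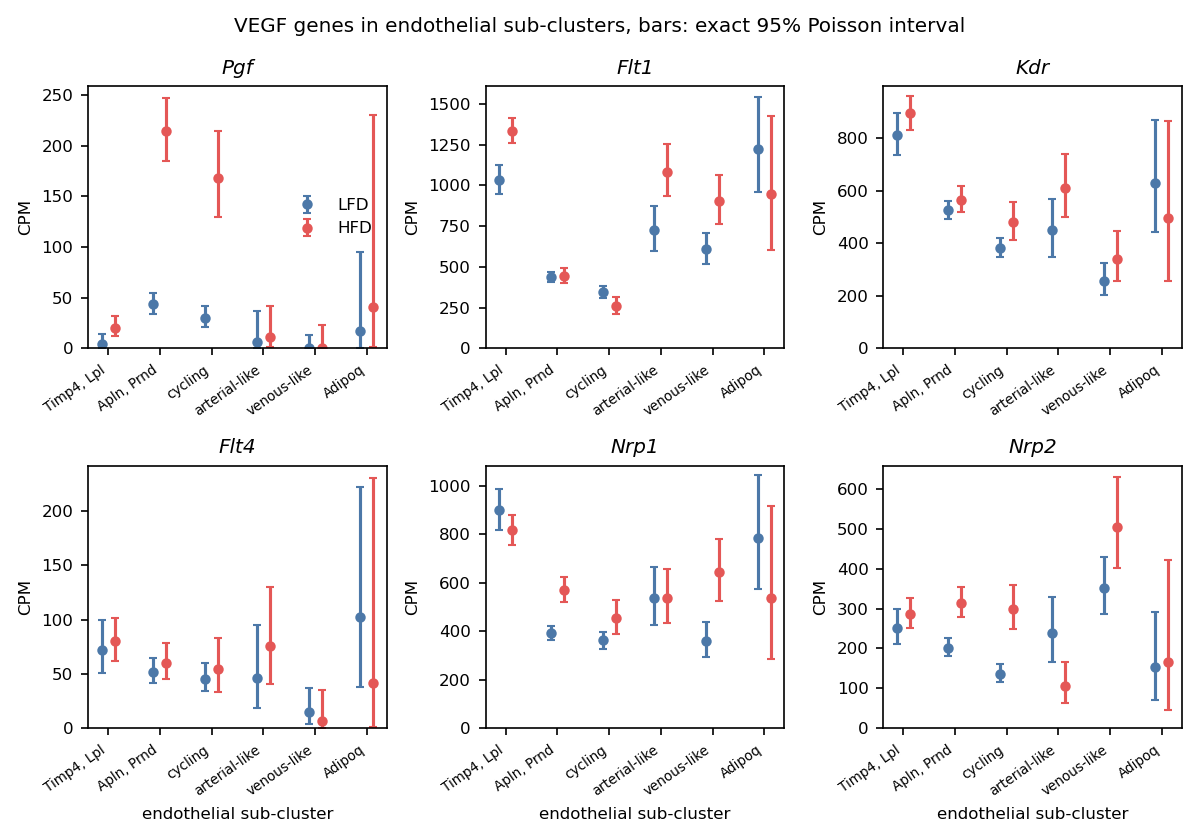
Level (CPM, axis from 0) of Pgf, the receptors and the neuropilins in the 6 endothelial sub-clusters in the LFD and HFD libraries, with exact 95% Poisson intervals as bars. Pgf is 43.5 and 214 CPM in LFD and HFD Apln-led cells, whereas Flt1 is 437 and 445 CPM there.

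Genes that act with the VEGF family were counted from lists in the same endothelial-like cells, where 19.2% of all genes were at least 1.5-fold higher and 9.07% as much lower in the HFD library. Of the early genes that VEGF can induce in endothelium, 7 of 11 with 20 UMIs were at least 1.5-fold higher in the HFD library and none lower, with a median log2 ratio of 0.74. The zinc finger gene Egr3 had 30.4 and 109 CPM, a ratio of 3.58 (2.87 to 4.49). Egr2 had a ratio of 2.68 (1.90 to 3.82), the nuclear receptor gene Nr4a1 one of 2.61 (2.27 to 2.99) and Egr1 one of 2.09 (1.99 to 2.19). The genes that tissue dissociation can induce went in the same direction, with 5 of 8 higher, none lower and a median log2 ratio of 0.67. Among these, Hspa1b had a ratio of 5.18 (2.59 to 11.3), Hspa1a 2.09 (1.55 to 2.82), Fosb 1.86 (1.71 to 2.02) and Ier2 1.62 (1.51 to 1.75). Most of these calls were lost with equal weights. The shares of all genes given above are for summed UMIs, and none is given here for other weights. With equal sub-cluster weights 3 of the 7 early genes kept a ratio of at least 1.5, Egr3 (2.27), Nr4a1 (2.06) and Egr2 (1.68), while Egr1 came to 1.34, Adamts1 to 1.36, Nr4a2 to 1.20 and Nr4a3 to 1.20, and Ptgs2, at 0.534, became lower. Equal UMI weights left the same 3 higher, with Ptgs2 at 0.706, and each library's own cell shares left 6, with Nr4a2 at 1.40 and Ptgs2 at 0.603. Of the 5 dissociation genes 1 kept it, Hspa1b (3.39), while Fosb came to 1.26, Ier2 to 1.15, Hspa1a to 1.13 and Junb to 1.07. Equal UMI weights left Hspa1b alone too, and own cell shares left Hspa1b and Fosb. Scaled to the median gene, 5 early genes and 3 dissociation genes were higher. The part of dissociation in the early gene values was not tested.

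Of 14 tip cell genes, which mark the leading cells of a vessel sprout, 3 were higher and 1 lower, counts near the shares of all genes. The Notch ligand gene Dll4 had 34.9 and 119 CPM, a ratio of 3.41 (2.77 to 4.22), and 3.14 with equal sub-cluster weights. The chemokine receptor gene Cxcr4 had a ratio of 2.78 (1.93 to 4.06) and the netrin receptor gene Unc5b one of 1.63 (1.31 to 2.03). Esm1, which codes for a secreted proteoglycan, was lower, with 108 and 62.6 CPM, a ratio of 0.579 (0.478 to 0.698), and this call was lost with equal sub-cluster weights, at 0.726. With these weights Cxcr4 was at 3.55 and Unc5b at 1.83, and Kcne3 (1.76) and Nid2 (1.66) were also past 1.5-fold. Scaled to the median gene, Unc5b was at 1.47 and no longer past 1.5-fold, and Apln, at 0.647, was lower, making 2 higher and 2 lower. The median log2 ratio of this list was 0.29.

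Of 7 listed genes of VEGFR2 signalling with counts, only Ptprb passed 1.5-fold. Ptprb codes for VE-PTP, a phosphatase that restrains TIE2 and VEGFR2, and had 471 and 873 CPM, a ratio of 1.85 (1.74 to 1.97). In the angiopoietin and TIE list, which also holds Ptprb, Tek, the TIE2 gene, had a ratio of 1.69 (1.45 to 1.98), making 2 of 4 higher. With equal sub-cluster weights Ptprb was at 1.44 and Tek at 1.17, so that neither list held a call. Of 7 class 3 semaphorin and plexin genes 2 were higher and 1 lower. Sema3g had 33.6 and 104 CPM, a ratio of 3.09 (2.49 to 3.85), Plxna4 had a ratio of 1.94 (1.49 to 2.53), and Sema3a had one of 0.342 (0.115 to 0.846). Of 10 hypoxia response genes, Epas1, the HIF2A gene, was higher, with a ratio of 2.03 (1.88 to 2.18), and the glycolytic gene Pgk1 lower, with one of 0.567 (0.502 to 0.639). Equal sub-cluster weights put Epas1 at 1.43 and Pgk1 at 0.681, short of 1.5-fold, and Sema3g at 1.70, Plxna4 at 1.73 and Sema3a at 0.647. With equal UMI weights Plxna4 was at 1.43. Scaled to the median gene, 3 hypoxia response genes were lower, Pgk1, Ldha and Ankrd37.

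In Wt1+ stromal-like cells, the type with most ligand UMIs over both libraries pooled, 5 of 11 semaphorin and plexin genes were at least 1.5-fold higher and 3 lower, against 8.46% and 9.53% of all genes there. Mesothelial markers in the same cells summed to 276 and 784 CPM, and their part in the values that follow was not tested. Sema3a, a neuropilin ligand, had 43.4 and 79.0 CPM, a ratio of 1.82 (1.70 to 1.95). Plxna4, a partner of neuropilins in semaphorin receptors, had 54.3 and 123 CPM, a ratio of 2.26 (2.13 to 2.39). Sema3c had a ratio of 2.59 (2.02 to 3.34) and Plxna2 one of 1.70 (1.51 to 1.90). Sema3d, from 19 and 21 UMIs, had one of 1.75 (0.896 to 3.44), an interval that includes 1, while Sema3g had 0.168 (0.0989 to 0.270), Plxnd1 0.546 (0.472 to 0.629) and Sema3b 0.629 (0.529 to 0.746). Of the hypoxia response list 4 of 12 were lower and none higher, namely Epas1 at 0.247 (0.203 to 0.297), Ankrd37 at 0.624 (0.419 to 0.913), Bnip3 at 0.646 (0.576 to 0.724) and the glucose transporter gene Slc2a1 at 0.647 (0.555 to 0.752). Of the early genes 4 of 12 were higher, namely the tissue factor gene F3 at 2.49 (2.19 to 2.82), Nr4a2 at 1.92 (1.86 to 1.97), Nr4a3 at 1.68 (1.61 to 1.75) and Ptgs2 at 1.63 (1.58 to 1.68). Against the same shares, of 8 dissociation genes 1 was higher, Hspa1b at 4.56 (3.94 to 5.28), and 1 lower, Fosb at 0.619 (0.605 to 0.633). Of 9 tip cell genes 3 were higher, among them Apln at 1.75 (1.41 to 2.18) and Plaur at 1.63 (1.504 to 1.77). In the VEGFR2 list Shb was higher, at 1.54 (1.39 to 1.71), and Nos3 lower, at 0.453 (0.217 to 0.876), and in the angiopoietin list Svep1 was lower, at 0.419 (0.275 to 0.623). Over the 3 clusters pooled, a step added after these values had been seen, in which mesothelial markers summed to 828 and 1710 CPM, the same 5 semaphorin and plexin genes were higher and 2 of the 3 were lower, with Sema3b at 0.785. Of the early genes F3 and Nr4a2 were still past 1.5-fold, with Nr4a3 at 1.47 and Ptgs2 at 1.46. Of the hypoxia response genes 3 of the 4 were, with Ankrd37 at 0.815. Plaur came to 1.43 and Nos3 to 0.751, and Angpt1 joined Svep1 at 0.622. Scaled to the median gene, Shb was no longer past 1.5-fold, and Hlx and Angpt1 were lower.

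Genes were last ranked by how alike their levels were to those of each member over the 15 named types in both libraries, 30 points that share libraries and depth. The measure is the Spearman correlation of CPM, given as a description. Kdr was most like Pcdh1 (0.93), Cdh13 (0.92) and Mcf2l (0.92). Flt1 was most like Tbkbp1 (0.91), Gng11 (0.90) and Deptor (0.89), and Flt4 most like Ptprk (0.88), Samd12 (0.86) and Adgrg1 (0.84). Among ligands, Pgf was most like Nckipsd (0.93), Wdfy1 (0.87) and Chml (0.86). For Vegfc the genes were Ddb1 (0.92), Decr1 (0.91) and Abi2 (0.91), and for Vegfd they were P3h4 (0.90), Gpx8 (0.90) and Hebp2 (0.89). For Nrp1 they were Cep85l (0.83), Zfand2a (0.83) and Itga1 (0.83), and for Nrp2 Fam222b (0.89), Tdrd7 (0.88) and Myo1c (0.87). By this measure likeness was weaker for Vegfa, with Stard5 (0.77), Ergic1 (0.77) and Slc39a7 (0.77), and for Vegfb, with Lynx1 (0.79), Ift27 (0.76) and Tmem97 (0.75). That order depends on the measure, since by Pearson correlation of log2(CPM + 1) the value of the gene most like Vegfb was 0.907 and that for Pgf 0.868. The names depend on it too, since with Pearson correlation at most 2 of the 3 genes named for a member were the same, and none for Vegfb, Vegfc, Vegfd, Flt1 and Nrp1.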

How the data were processed

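Single-cell RNA libraries (10x 3′ chemistry) of sorted eYFP+ cells were analysed from the UMI counts that the authors deposited, made with Cell Ranger 4.0.0 against mm10. The submitters' notes also name STAR. These are raw counts of barcodes called as cells, 11281 LFD and 9631 HFD, and the gene annotation and strand setting were not given in the sources used here. Cells with 500 to 40000 UMIs and under 12.5% mitochondrial UMIs were kept. Doublets were removed by Scrublet score (scanpy 1.11.5), 922 LFD and 658 HFD barcodes. The libraries were integrated and clustered in Seurat 5.3.0 (R 4.3.3), leaving out the members and listed genes, and clusters were named from marker lists. UMIs were summed per type and library, with exact Poisson, binomial (Clopper-Pearson) and conditional ratio intervals (scipy 1.17.1), and the ratio step was tested on simulated data. A gene was counted as higher or lower at 1.5-fold with at least 20 UMIs over both libraries. Ratios were given where each library had at least 50 cells of a type. This limit was not applied to endothelial sub-clusters. The cycling one had 37 HFD cells, the arterial-like one 34 LFD and 45 HFD cells, and the venous-like one 40 LFD and 33 HFD cells. The members and all lists were chosen with earlier results of these data known. All members were named, and of other listed genes those past 1.5-fold with an interval on 1 side of 1, at most 4 per list and direction. Named beyond this rule were Sema3d, whose interval included 1, and genes whose call changed under another setting. For pattern likeness the leading 3 genes were named. Member positions are from GENCODE M21 (GRCm38) and promoters from RefSeq. Alternatives covered doublets, integration, resolution, the mitochondrial limit, scaling, cell gating, thinning and fold, and, added after the values had been seen, sub-cluster weights and pooled clusters.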

Additional observations from a re-analysis of the deposited data

Results flagged for a closer look

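For 5 members the ratio of HFD to LFD level went in opposite directions between cell types, with both intervals clear of 1. The difference between the types was not tested, since each diet had 1 library. The Pgf ratio in endothelial-like cells was 19.7 times that in mesothelial-like cells, where 1 LFD cell held 62.5% of the Pgf UMIs. The Vegfc ratio in endothelial-like cells was 3.38 times that in mesothelial-like cells, but it rested on 13 and 24 UMIs and was 1.85 with equal sub-cluster weights. The mesothelial-like ratio was 1.03 without integration and 1.20 under 5% mitochondrial UMIs, settings in which that cluster held a different set of cells. The Flt1 ratio in endothelial-like cells was 4.98 times that in neutrophil-like cells, whose Flt1 UMIs all lay in cells with at least 3 endothelial markers. The Flt4 ratio in endothelial-like cells was 3.26 times that in Wt1+ stromal-like cells, but the endothelial-like interval began at 1.01, and in cells gated on Pecam1 the ratio of 1.24 had an interval that included 1 (0.993 to 1.55). The Nrp1 ratio in dendritic cell-like cells, from 5 and 17 UMIs, was 23.1 times that in neutrophil-like cells, from 33 and 2 UMIs, of which 32 and 2 lay in the 17 LFD cells and 1 HFD cell with at least 3 endothelial markers.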

How the results depend on the processing

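In endothelial-like cells the Flt1 ratio was 1.36 as a mean of per-cell CPM, 1.36 with median-ratio scaling, 1.39 in cells gated on Pecam1 and 1.22 with equal sub-cluster weights. Over the same settings Kdr was 1.21, 1.17, 1.20 and 1.12. Nrp1 was 1.14 per cell, 1.24 with median-ratio scaling and 1.05 with equal weights, and Nrp2 was 1.34, 1.34 and 1.29. Pgf was 4.95 with equal weights. With equal UMI weights Pgf was 5.05, Flt1 1.14, Kdr 1.13 and Nrp1 1.19, and with each library's own cell shares Nrp1 was 1.17 and Nrp2 1.32. The Nrp2 ratio in Wt1+ stromal-like cells was 1.29 without integration and 3.84 at resolution 0.8. Under 5% mitochondrial UMIs, the Nrp2 ratio was 2.48 in mesothelial-like cells and 2.63 over both mesothelial-like clusters pooled, since no Wt1+ stromal-like cluster was left, and the APC-like share of HFD Vegfd UMIs was 73.4%. The plasma cell-like share of Vegfa UMIs was 17.6% in the LFD and 56.0% in the HFD library without doublet removal, and 43.5% and 82.6% under 5% mitochondrial UMIs. Under that limit the non-cycling plasma cell-like cluster held 926 cells in place of 965, and the mesothelial-like cluster 1515 in place of 3151. At a fold of 2, 5.43% of genes were higher and 3.06% lower in endothelial-like cells. With equal sub-cluster weights the listed genes past 1.5-fold in endothelial-like cells went from 7 higher and 0 lower to 3 and 1 for early genes, from 3 and 1 to 5 and 0 for tip cell genes, from 5 to 1 higher for dissociation genes, from 2 to 0 higher for angiopoietin and TIE genes, from 1 to 0 higher for VEGFR2 signalling, and from 1 and 1 to 0 and 0 for hypoxia response genes. Equal UMI weights gave the early genes 3 higher, tip cell genes 5 and 0, dissociation genes 1 higher, semaphorin and plexin genes 1 higher in place of 2, and angiopoietin and TIE, VEGFR2 signalling and hypoxia response genes 0 higher. With own cell shares 1 early gene and 2 tip cell genes were lower, and 1 angiopoietin and TIE gene and 2 dissociation genes were higher. With median-ratio scaling 2 tip cell and 3 hypoxia response genes were lower and 3 dissociation genes higher, and in Wt1+ stromal-like cells 0 VEGFR2 signalling genes were higher and 1 early gene and 2 angiopoietin and TIE genes lower. With the Wt1+ stromal-like and mesothelial-like clusters pooled, the counts went from 0 to 1 higher for VEGF-C and VEGF-D processing, from 4 to 2 higher for early genes, from 1 to 0 lower for VEGFR2 signalling and from 1 to 2 lower for angiopoietin and TIE genes, against Wt1+ stromal-like cells alone. Directions reversed under 5% mitochondrial UMIs for Vegfa (0.805) and Vegfc (1.20) in mesothelial-like, Flt1 (1.88) in macrophage-like and Nrp1 (0.645) in cycling mesothelial-like cells, and without integration for Vegfc (1.03) in mesothelial-like cells. Clusters held different sets of cells in these settings, with 3151 mesothelial-like cells in the main one, 4971 without integration and 1515 under 5% mitochondrial UMIs. The causes of the reversals were not tested. Of 296 other recomputed values, 269 moved by no more than counting error, 22 moved further and 5 reversed. These were not spread evenly over the settings. Under 5% mitochondrial UMIs 19 of 33 values moved by no more than counting error, 10 moved further and 4 reversed. Without integration 47 of 52 moved by no more than counting error, 4 moved further and 1 reversed. Under 5% mitochondrial UMIs no Wt1+ stromal-like or B-like type was left and APC-like cells were under 50 in a library, so these ratios were not run. Median-ratio scaling shifted the median gene by 0.16 in endothelial-like, 0.13 in mesothelial-like, 0.14 in cycling mesothelial-like and -0.21 in plasma cell-like cells on the log2 scale, where the Vegfa ratio was then 1.68. No replicate could be left out and no paired analysis was possible because each diet had 1 library. Counts of a few UMIs limit Vegfa, Vegfc and Vegfd in endothelial-like cells.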
